A study of Mus musculus with 6 samples.

Results

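The 6 mismatch repair genes Msh3, Msh6, Mlh3, Pms1, Pms2 and Exo1 were examined for E2F1 chromatin immunoprecipitation (ChIP-seq) peaks, out of 21887 protein-coding mouse genes on chromosomes 1 to 19, X and Y. The genes were chosen by function, but with earlier results of these data known, so counts among them are descriptive. A peak was assigned to a gene when it lay inside the gene's annotated span or within 1000 bp of it. The rule found 10 peaks, 5 among the 7836 of E2F1 replicate 1 and 5 among the 8027 of E2F1 replicate 2. It found 0 among the 70 peaks of empty vector (EV) replicate 1 and 0 among the 358 of EV replicate 2.

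The cells were NIH/3T3, an established line of mouse fibroblasts, carrying a stably integrated construct for doxycycline-inducible E2F1 or the EV control construct. Both lines were starved of serum for 48 hours to bring them to a G0-like state and then received doxycycline for 12 hours, so the control shares starvation and doxycycline with the E2F1 group. The study asks which genes E2F1 acts on when resting cells return to the cycle. There were 2 ChIP libraries of each line, each with its own peak list, and 2 input DNA samples of the EV line that were not analysed here. The antibody, and whether each line was a clone or a pool, are not given in the sources used here. The EV cells keep their own E2f1 gene. The labels do not say that replicates came from separate cultures, so the spread between them may be technical.

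Mismatch repair removes errors that DNA polymerases leave behind during replication. MutS-type proteins find the error: Msh6 serves in the complex that recognises base mismatches and very short loops, and Msh3 in the one that recognises longer insertion and deletion loops. MutL-type proteins (Pms2, Pms1 and Mlh3) act next, Pms2 as the main endonuclease that nicks the strand holding the error, and Exo1 is the exonuclease that digests the nicked strand before it is filled in. E2F proteins bind DNA together with a DP partner at promoters of genes used at the start of S phase, where TTTCGCGC and TTTGGCGC are typical of the letters they recognise.

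The promoter sequences are shown first because the peaks at these genes sit on them. RefSeq promoter sequences of GRCm38.p6, 250 bases before to 50 bases after an annotated start, were matched for 5 of the 6 genes, and Mlh3 had 2 such windows. They were searched on both strands for TTTCCCGC, TTTCGCGC, TTTGCCGC and TTTGGCGC (8 letters) and for the same forms without the first T (7 letters, which every 8-letter match also contains). The stretches of Msh6, Pms1 and Pms2 that hold a match are printed 5′ to 3′ on the strand of the named gene, with the matched letters in capitals.
Msh6, chr17:87975054-87975083, plus strand: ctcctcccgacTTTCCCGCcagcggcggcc
Pms1, chr1:53297139-53297168, minus strand: gtcacaggacaaTTCCCGCggcagccacag
Pms1, chr1:53297032-53297061, minus strand: tggctgccagccGCGCCAAtcccacttcct
Pms2, chr5:143910000-143910029, plus strand: cgagagcggcaGCGCCAActctcccgcggt
In Msh6 the capitals are 1 match of TTTCCCGC. Pms1 had 2 matches of 7 letters, TTCCCGC and, on the other strand, TTGGCGC. Pms2 had 1, TTGGCGC on the other strand.

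Mlh3, the gene without a peak, had no match in either of its windows. Its upstream sequence is printed beside that of Msh6, the gene with the highest mean fold, so that the 2 promoters can be compared. Only bases outside the gene spans are given. Capitals mark CCAAT, the box bound by the factor NF-Y, or its reverse complement ATTGG.
Msh6, chr17:87974800-87975049, plus strand: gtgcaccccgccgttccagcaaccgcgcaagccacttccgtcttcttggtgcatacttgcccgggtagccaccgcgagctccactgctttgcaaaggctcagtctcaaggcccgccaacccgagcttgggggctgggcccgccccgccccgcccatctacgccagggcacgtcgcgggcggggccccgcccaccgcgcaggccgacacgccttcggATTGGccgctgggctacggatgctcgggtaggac
Mlh3, chr12:85270648-85270849, minus strand: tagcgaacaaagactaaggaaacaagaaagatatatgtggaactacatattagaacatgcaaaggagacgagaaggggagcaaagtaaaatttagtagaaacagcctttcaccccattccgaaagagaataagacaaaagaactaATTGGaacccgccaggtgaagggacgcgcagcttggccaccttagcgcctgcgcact
Over the 300-base windows the GC content was 71.7% in Msh6 and 51.7% in both windows of Mlh3. The ratio of observed to expected CpG was 0.976 in Msh6, and 1.10 and 1.14 in the Mlh3 windows, so the Mlh3 promoter was lower in GC without being depleted of CpG. The remaining GC contents were 65% in Msh3, 68.3% in Pms1 and 58.3% in Pms2.

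An 8-letter E2F match was present in the promoters of 2 of the 5 genes with sequence and a 7-letter match in 4 of the 5. Counted by window, these were 2 and 4 of the 6. Over all 32851 promoters of the table, non-coding genes included, 2.26% held an 8-letter match and 9.57% a 7-letter match. For protein-coding genes alone, 2.85% and 12.1% of promoters did. Among promoters of protein-coding genes with a peak in both E2F1 replicates the shares were 5.03% and 20.1%, against 1.31% and 6.53% for genes with a peak in neither. The cell-cycle homology letters TTTGAA and TTCGAA were in 0 of the 6 windows of these genes and in 19.2% of all promoters. CCAAT was in 5 of the 6 windows, all except that of Msh3, and in 37.4% of all promoters. The 2 windows of Mlh3 overlap and hold the same box, so it is counted in both. A match says only that the letters are there, and binding at a match was not tested.

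Of the 6 genes, 5 had a peak in each E2F1 library: Msh3, Msh6, Pms1, Pms2 and Exo1. Mlh3 had none. In the EV libraries none of the 6 had a peak. Over all protein-coding genes 36.9% had a peak by the same rule in E2F1 replicate 1 and 38.2% in replicate 2, and 0.0366% and 0.407% in EV replicates 1 and 2. Overlapping peaks in both E2F1 replicates were found at the same 5 genes and at 34.4% of all protein-coding genes. With neither EV list holding a peak, 5 of the 6 genes and 34.2% of all genes remained.

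The number of these genes with a peak was 5 ± 0 per E2F1 library and 0 ± 0 per EV library (SD, n = 2 each). The groups did not overlap. By an exact permutation test, two-sided, p was 0.333, which is also the lowest value possible with 2 libraries against 2, so this design cannot pass 0.05. A larger share of cells with E2F1 at a site and more E2F1 per cell cannot be told apart in such bulk samples.

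**Figure D1:**
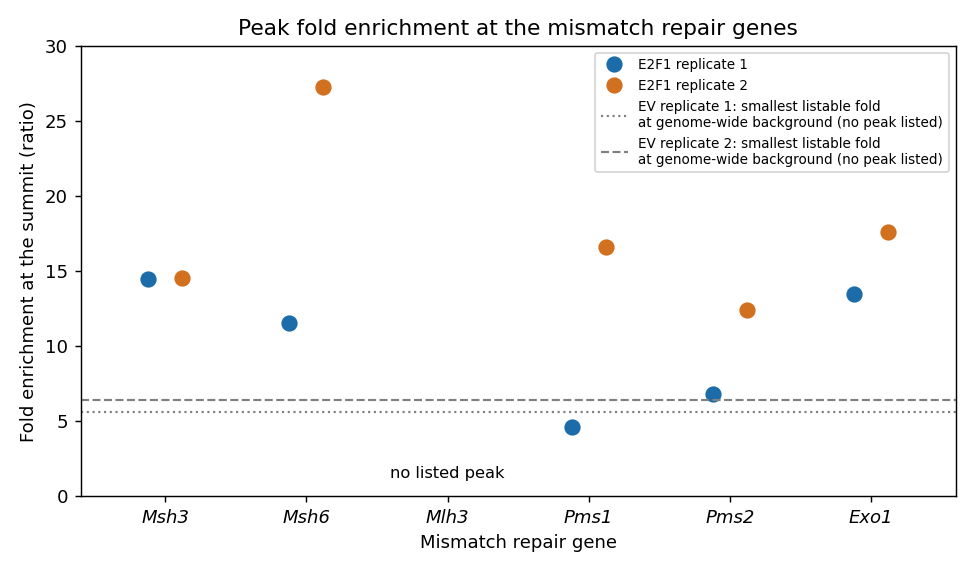
Fold enrichment of the peak at each mismatch repair gene in E2F1 replicate 1 (blue) and replicate 2 (orange), 1 point per library. The vertical axis is the ratio of read pileup to local background, with 1 added to each. The grey lines are the smallest folds that could be listed at the genome-wide background of EV replicate 1 (5.63) and EV replicate 2 (6.43). That background is the lowest recovered among the listed peaks of each library. No peak was listed at these genes in the EV libraries. All points except Pms1 in replicate 1 (4.62) lie above both lines. The lines leave out the higher local background at the genes, where lower folds could be listed. At Pms1 these would be 4.15 in EV replicate 1 and 5.06 in EV replicate 2, if its relative background is as in the E2F1 libraries.

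Among the MutS genes, Msh6 had the highest mean fold of the 5 genes with a peak and Msh3 the closest replicates. The place of Msh6 came from replicate 2, since in replicate 1 its fold was below those of Msh3 and Exo1. Fold is the authors' value, taken as the read pileup at the summit over the local background, with 1 added to each. At Msh6 the fold was 11.5 in E2F1 replicate 1 and 27.3 in replicate 2, a mean of 19.4 ± 11.1 (SD, n = 2). The peak spanned chr17:87974480-87976125 in replicate 1 and chr17:87974520-87975930 in replicate 2, with summits 165 and 11 bp inside the start of the gene (chr17:87975050-87990892). The TTTCCCGC match printed above lay 146 bp from the summit in replicate 1 and 7 bp from it in replicate 2.

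At Msh3 the folds were 14.4 and 14.6 in E2F1 replicates 1 and 2, a mean of 14.5 ± 0.081 (SD, n = 2). The peak spanned chr13:92354693-92355629 in replicate 1 and chr13:92354652-92355616 in replicate 2. Its summits, 1 bp apart, lay 150 and 149 bp inside the Msh3 span (chr13:92211878-92355004). The whole 300-base promoter window of Msh3 lay inside the peak in both replicates. Its 8-letter E2F matches, TTTGGCGC and, on the other strand, TTTCGCGC, overlap each other and so mark a single place. They lay 342 to 347 bp from the summits, farther than those of the other genes searched.

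Among the MutL genes, Pms1 and Pms2 had the lowest mean folds of the 5, and Mlh3 had no peak. The place of Pms1 came from replicate 1, since in replicate 2 its fold was above that of Msh3. At Pms2 the folds were 6.78 and 12.4 in E2F1 replicates 1 and 2, a mean of 9.59 ± 3.97 (SD, n = 2). The peak spanned chr5:143909214-143910867 in replicate 1 and chr5:143909377-143910408 in replicate 2. Its summits, 8 bp apart, lay 190 and 182 bp outside the Pms2 span (chr5:143909901-143972745). They fell 128 and 120 bp inside Aimp2, which encodes a scaffold protein of the tRNA synthetase complex and starts on the opposite strand, with 61 bases between the spans. The E2F match of Pms2 was on the other side of the boundary, 303 and 295 bp from the summits.

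At Pms1 the folds were 4.62 in E2F1 replicate 1 and 16.6 in replicate 2, a mean of 10.6 ± 8.47 (SD, n = 2). In replicate 1 this was one of the weakest peaks listed, with 3.78% of the list below it in fold and a −log10 p of 11.2, where the lowest of the list was 10.0001. In replicate 2 it stood above 68.8% of the list, with a −log10 p of 49.4. The intervals were nearly the same, chr1:53296675-53297454 and chr1:53296659-53297484, but the summits were 245 bp apart. In replicate 1 the summit lay 137 bp inside Ormdl1, a regulator of sphingolipid synthesis, and in replicate 2 it lay 44 bp inside Pms1 (chr1:53189187-53297031). The 2 printed E2F matches lay 79 and 186 bp from the summit of replicate 1, and 166 and 59 bp from that of replicate 2. Among the 7521 protein-coding genes with a peak in both lists, 12.4% had summits at least as far apart and 1.16% had a larger ratio of replicate 2 to replicate 1 than the 3.59 of Pms1.

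The bases between the gene spans of these 2 pairs are printed because both peaks cover them whole. Capitals mark CCAAT or ATTGG and 7-letter E2F matches, which overlap in the Pms1 stretch.
Pms1 and Ormdl1, chr1:53297032-53297094, minus strand: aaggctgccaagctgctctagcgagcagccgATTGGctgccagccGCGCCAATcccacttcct
Pms2 and Aimp2, chr5:143909840-143909900, plus strand: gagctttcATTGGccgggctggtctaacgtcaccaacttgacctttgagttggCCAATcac
The stretch of 63 bases next to Pms1 holds 2 CCAAT boxes and 1 E2F match, and that of 61 bases next to Pms2 holds 2 CCAAT boxes and no E2F match.

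Exo1, the exonuclease, had folds of 13.5 and 17.6 in E2F1 replicates 1 and 2, a mean of 15.5 ± 2.88 (SD, n = 2). The peak spanned chr1:175880501-175881197 and chr1:175880488-175881202, the narrowest of the 5 at 697 and 715 bp. The summits lay 27 and 167 bp inside the boundary of the span (chr1:175880768-175911396), and the span of the non-coding gene Gm36360 lies 12 bases from it.

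Mlh3 (chr12:85234466-85270647), which also acts in meiotic crossing over, had no peak inside its span or within 5000 bp. The nearest E2F1 peaks were 14723 and 15024 bp away in replicates 1 and 2, at Eif2b2, a translation initiation factor subunit gene, with folds of 9.46 and 11.1. The lists do not hold sites weaker than a p of about 1e-10. At the genome-wide background of either E2F1 library a pileup of 16 reads, a fold of 5.97 in replicate 1 and 5.95 in replicate 2, would have been listed. The local background at Mlh3 is not known, and a higher one would raise the pileup needed. At the 5 genes with a peak the local background was 1.05 to 4.80 times the genome-wide one. A signal at Mlh3 below the pileup needed there was not detectable from these lists.

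**Figure D2:**
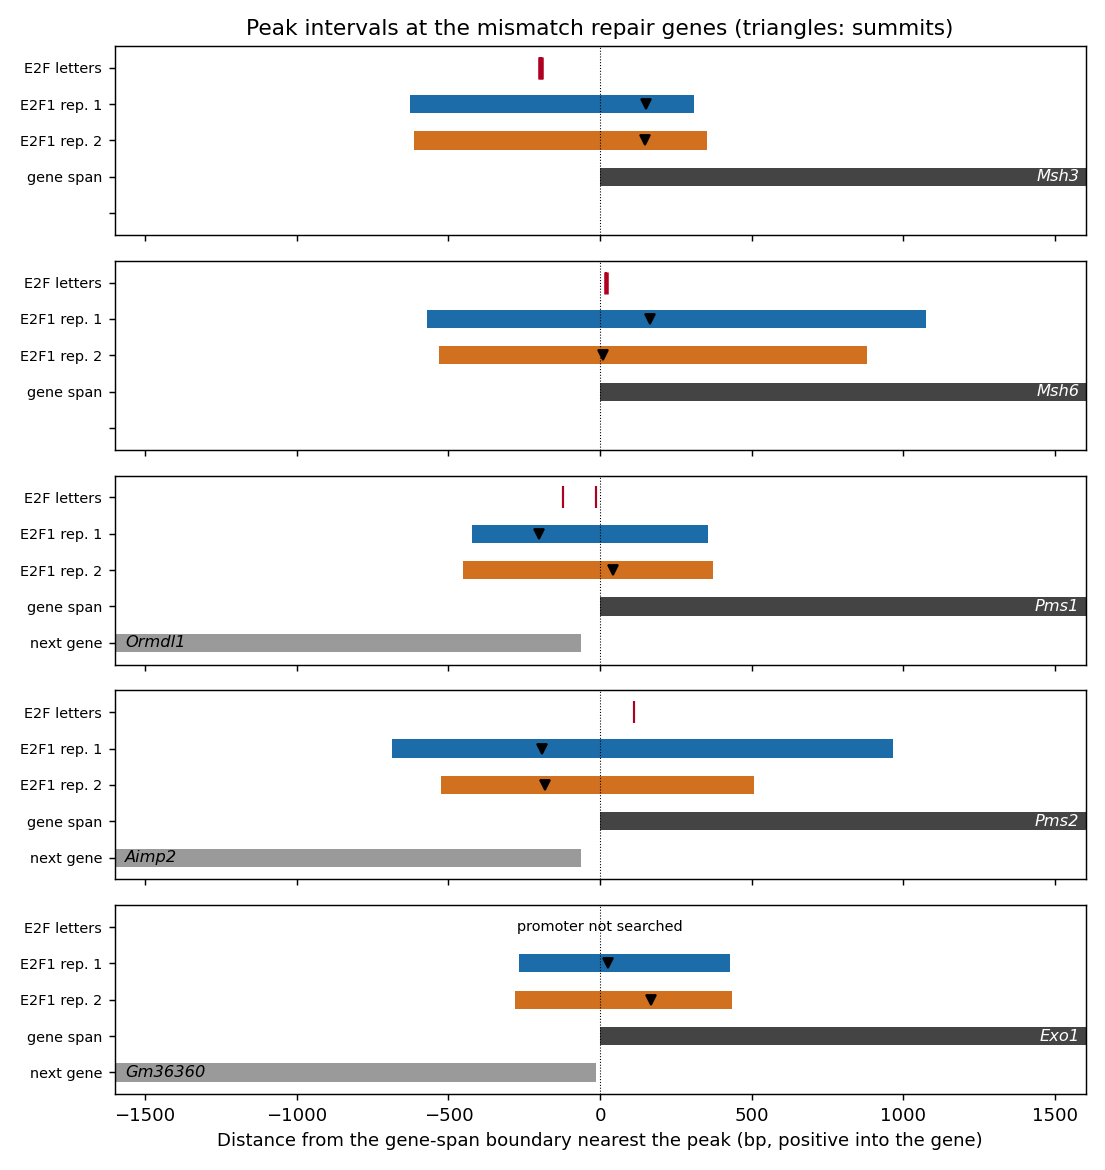
Peak intervals at the 5 genes with a peak, drawn along the distance in bp from the gene-span boundary nearest the peak (positive into the gene), with E2F1 replicate 1 in blue, replicate 2 in orange and summits as black triangles. Dark bars are the gene spans, grey bars the next genes along at Pms1, Pms2 and Exo1, and red ticks the E2F matches (thick for 8 letters), which were not searched for Exo1. Summits lie within 201 bp of the boundary, outside the gene span at Pms2 in both replicates and at Pms1 in replicate 1.

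Each of the 5 genes had 1 peak, at a single end of its span, although the 6 spans together cover 396471 bp. No peak was listed deeper inside any of them. The peaks at Pms1, Pms2 and Exo1 also touched the next gene, Ormdl1, Aimp2 or Gm36360, and the Msh6 peak touched no other annotated gene. Widths ran from 697 bp at Exo1 to 1654 bp at Pms2, both in replicate 1, against list medians of 938 bp in replicate 1 and 814 bp in replicate 2.

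The read pileup and the local background behind each fold were recovered from the deposited fold and p-value, and at 4 of the 5 genes the pileups of the replicates were close. Pms2 had 45 reads in both replicates. Msh3 had 58 and 53 reads (exact Poisson 95% intervals 44.0 to 75.0 and 39.7 to 69.3), and Exo1 had 75 and 71 (59.0 to 94.0 and 55.5 to 89.6). Msh6 had the highest pileups, 113 and 122 reads (93.1 to 135.9 and 101.3 to 145.7). Pms1 had 25 reads in replicate 1 and 48 in replicate 2 (16.2 to 36.9 and 35.4 to 63.6). Those intervals, which cover counting error only, overlap at every gene, at Pms1 by less than 2 reads. Overlap of such intervals does not show that the counts are alike, and the difference was not tested.

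The local background differed more. It was 8.87 reads at Msh6 in E2F1 replicate 1 and 3.51 in replicate 2, so the 2.36-fold higher fold of replicate 2 came with a pileup ratio of 1.08. At Pms2 the background was 5.79 and 2.71 reads with equal pileups. At Pms1 both parts moved, with backgrounds of 4.63 and 1.95 reads. Exo1 had 4.63 and 3.10, and Msh3 had 3.09 and 2.71. All 5 folds were higher in replicate 2, as were 70.9% of those of the 7521 protein-coding genes and 7 of 16 among the other repair and resynthesis genes described further on. The median background ratio of replicate 2 to replicate 1 was 0.468 at the 5 genes, 0.753 over all those genes and 1.23 at the 16 other genes. The median pileup ratio was 1 in the first 2 sets and 1.04 in the third.

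**Figure D3:**
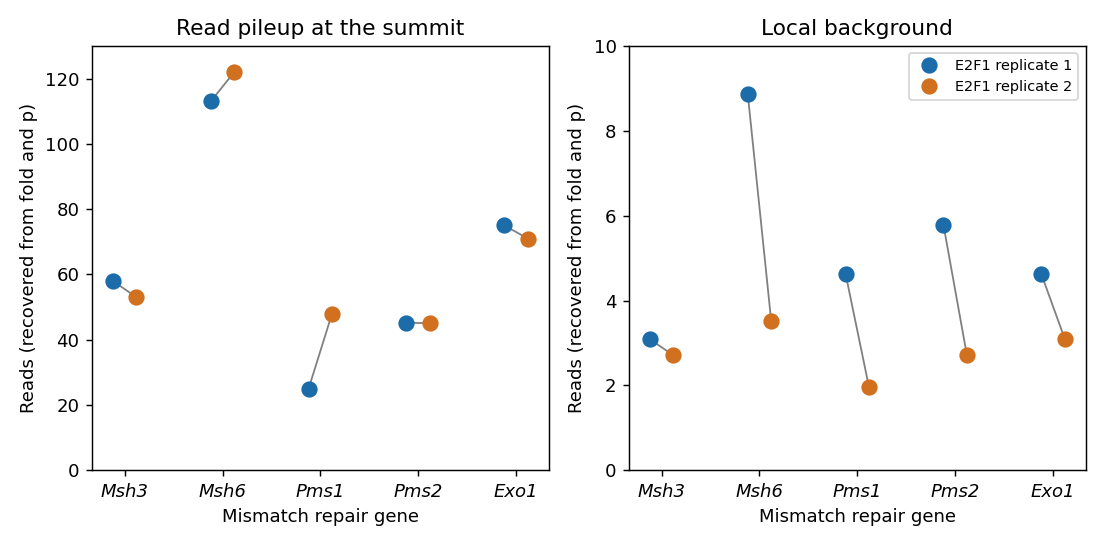
Recovered read pileup at the summit (left, reads) and local background (right, reads) of the peak at each gene, with E2F1 replicate 1 in blue and replicate 2 in orange joined by a line, 1 point per library. Pileups are close between replicates except at Pms1 (25 and 48 reads), while the background is lower in replicate 2 at all 5 genes.

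Read by pileup instead of fold, the order of the genes was Msh6, Exo1, Msh3, Pms2 and Pms1 in replicate 1, and Pms1 (48 reads) stood above Pms2 (45 reads) in replicate 2. Msh6 stood above 90.1% and 91.3% of the E2F1 lists by pileup, against 64.7% and 87.2% by fold. Exo1 stood above 75.2% and 73.0% by pileup and 73.2% and 71.5% by fold. Msh3 stood above 62.0% and 57.7% by pileup, and Pms2 above 47.1% and 48.7%. Pms1 stood above 13.0% of the list of replicate 1 and 52.2% of that of replicate 2. The counting intervals of neighbours in this order overlap throughout replicate 1. In replicate 2 those of Exo1, Msh3, Pms1 and Pms2 all overlap one another, and only that of Msh6 stands apart.

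For the EV libraries the depth sets what an unlisted site means. The genome-wide background was taken as the lowest one recovered among the peaks of a list, 2.20 and 1.18 reads here. EV replicate 1 lists only 70 peaks, so its true value may be lower. At these backgrounds a pileup of 17 reads in EV replicate 1 and 13 in EV replicate 2 would have been listed, a fold of 5.63 and 6.43. If the local background at each gene stood in the same proportion as in the E2F1 libraries, taking the higher of the 2, the pileup needed at Msh6 would be 37 reads in EV replicate 1 and 26 in EV replicate 2. At Pms2 it would be 29 and 21 reads, and at Msh3 21 and 16. The E2F1 pileups at those genes were above these limits. Their folds were also above the matching fold limits, which were at most 5.73 (Msh3 in EV replicate 2). At Pms1 the limit would be 26 and 19 reads, a fold of 4.15 and 5.06. The peak in E2F1 replicate 1 had 25 reads and a fold of 4.62. Reads of libraries of unlike depth do not compare directly. By fold, that peak was above the limit of EV replicate 1 and below that of EV replicate 2. A site as weak could thus have gone unlisted in EV replicate 2, and by reads alone in EV replicate 1. The nearest EV peak to any of the 6 genes was 1714091 bp away, from Pms2 in EV replicate 2.

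Other genes of the pathway, which supply the clamp, polymerase, ligase and related proteins, were taken from a list of 18. That list too was chosen with earlier results of these data known. Overlapping peaks in both E2F1 replicates were found at 16 of the 18, against 34.4% of all protein-coding genes. A peak in an EV list was found at 0, where the shares of all genes were 0.0366% and 0.407%. Pold4, the smallest subunit of polymerase delta, and Msh4, a MutS-type gene of meiosis, had no peak in either E2F1 list. The highest mean folds were at Pcna, the sliding clamp, with 54.0 and 57.5 in replicates 1 and 2, and at Rfc1, the large subunit of the clamp loader, with 41.9 and 69.5. The lowest were at Rfc2, with 14.1 and 11.0, and at Rpa2, a subunit of the single-strand binding protein, with 18.3 and 7.81. Msh5, the meiotic partner of Msh4, had folds of 37.1 and 18.9.

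The median of the mean fold was 14.5 at the 5 mismatch repair genes, 21.9 at the 16 other genes and 11.8 over the 7521 protein-coding genes with a peak in both lists. The gap to the 16 other genes depended on the library, with median folds of 11.5 and 23.7 in replicate 1 and 16.6 and 19.1 in replicate 2. Msh6 stood above 78.4% of those genes, Exo1 above 67.2%, Msh3 above 62.8%, Pms1 above 42.9% and Pms2 above 35.2%. Pcna stood above 99.4%. For comparison, the peak at E2f1 itself had folds of 34.0 and 38.8. The protein made from the construct is not measured by these files.

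**Figure D4:**
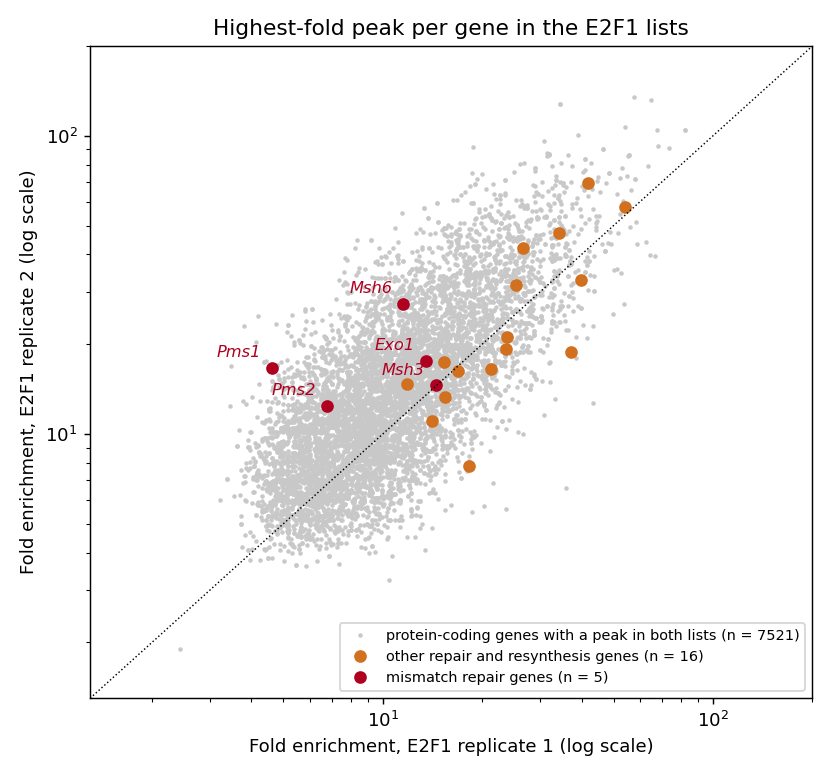
Fold enrichment of the highest-fold peak of each gene in E2F1 replicate 1 (horizontal) and replicate 2 (vertical), both on log scales, for 7521 protein-coding genes (grey), 16 other repair and resynthesis genes (orange) and the 5 mismatch repair genes (red). The dotted line marks equal folds. Msh3 lies on it, and Pms1, with 4.62 and 16.6, lies farthest above it of the 5.

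With a stricter threshold, a peak score of at least 312 (the median of all E2F1 peaks), 3 genes kept a peak in both replicates, Msh3, Msh6 and Exo1, where 16.8% of all genes did. Pms1 and Pms2 fell below it in replicate 1, with scores of 84 and 219, and passed it in replicate 2, with 459 and 356. Of the 18 other genes, 15 passed in both replicates.

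The genes most like each member were taken as those with the nearest pair of log2 folds over the 2 E2F1 lists, leaving out genes at the same peak. For Msh6 they were Aspscr1 (11.6 and 27.0) and Agps (11.5 and 27.1), and for Msh3 Snai2 (14.4 and 14.7) and Eif4a3 (14.2 and 14.6). For Pms2 they were Ccn1 and Gnpda1, each with 12.4 in replicate 2. For Exo1 they were D830031N03Rik and Macf1, which share a value, and for Pms1 Mrpl41 and Pnpla7, which also share one (4.80 and 17.1). With only 2 lists, such likeness is one of level alone.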

How the data were processed

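Peaks came from 4 lists in the 10-column narrowPeak layout, 1 per library, called per sample. The submitters' processing notes name FastQC, Trimmomatic, Bowtie2, MACS2, ChIPseeker and the build mm10, without versions, roles or settings. The fold enrichment deposited by the authors was taken as a ratio of pileup to local background, with 1 added to each. The deposited score is 10 times the −log10 q-value, rounded down, and the deposited −log10 p-value is at least 10 in every list, so weaker sites are missing. The labels' extraction protocol describes RNA only. No read totals were used, and depth was read from the genome-wide background of each list. This was taken as the lowest background recovered among its peaks (1.85 and 1.86 reads for the E2F1 libraries, 2.20 and 1.18 for EV).

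Gene spans came from RefSeq on GRCm38.p6 and promoters from the RefSeq promoter table of the same build. Positions count from 1. Pileup and background were solved from fold, taken as (pileup + 1)/(background + 1), and a Poisson p-value. Whole-number pileups matched both deposited values, within 5% of the change that 1 read makes, at 99.99% (E2F1 replicate 1), 99.98% (E2F1 replicate 2), 95.7% (EV replicate 1) and 99.7% (EV replicate 2) of peaks. The solver and the gene assignment were tested on simulated data. Replicate peaks were shared at 1 bp of overlap. Python 3.11.15, pandas 2.3.3 and scipy 1.17.1 were used. The named genes were the 6 members, adjacent genes under the same peak, the 2 highest, 2 lowest and peakless genes of the list of 18, the 2 nearest genes per member and E2f1. Msh5, Eif2b2 and Gm36360 were added after their values were seen. One item is not reported here. Members and lists were chosen with earlier results of these data known.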

Additional observations from a re-analysis of the deposited data

How the results depend on the processing

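The difference of 5 genes with a peak between E2F1 and EV libraries ran from 5 to 5 when each library in turn was left out. It was also 5 with windows of 0 and 5000 bp, with the summit as the position and with gene boundaries only (a setting chosen after seeing the data), and 4 at the stricter score. With the replicate block it was 5, and flipping the sign of each of the 2 pairs (exact permutation) gave p = 0.5, the lowest possible. A single count per library gives no check of this pairing. The number of genes with a peak in both E2F1 replicates was 4 with summits within 200 bp, which leaves out Pms1, and 3 at the stricter score, which removes weaker peaks by construction. The background share was 18.0% over all annotated genes, which adds non-coding genes and pseudogenes, against 34.4% for protein-coding ones. Genes with E2F letters numbered 2 with the 8-letter forms and 4 with the 7-letter forms, which include the 8-letter ones by construction. The Msh3 peak centre lay upstream of the start site, at -144.5 bp on average, where its summit lay 148.5 bp downstream. Of 29 alternative values over 13 results, 21 stayed within the spread or 1.5 times the count and 8 did not. The spread is that of 2 replicates, so wider replicates pass more easily, and the tally does not measure robustness. Read by pileup instead of fold, the mean list position of Msh6 went from 75.9% to 90.7% and counted as unmoved. That of Exo1 went from 72.3% to 74.1% and counted as moved. The tally leaves out the difference between groups, whose p cannot pass, and the mean folds, which become the fold of the other replicate when 1 of 2 is dropped. The p-value filter of 1e-10 limits every statement on absence. Judged by the lowest background recovered in each list, EV replicate 2 was the shallowest library.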
